A study of Mus musculus with 10 samples.

Results

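The cells described here are the neurons taken as layer VI corticothalamic neurons of the embryonic mouse cortex. They were selected on their own measured UMI counts. A cell was taken if its UMIs (molecules counted by their unique barcodes) came from at least 3 of the 6 genes Hs3st4, Nxph3, Tle4, Rprm, Nfe2l3 and Igfbp3, from fewer than 2 of the 4 subplate genes Nxph4, Cplx3, Ctgf and Moxd1, and from the interneuron genes Dlx1, Dlx2 and Dlx5 with at most 1 UMI in sum. Of 80071 deposited barcodes, 65779 held at least 1000 UMIs with at most 10% of them mitochondrial, and 7947 of these cells met the rule. The number of such cells was between 523 and 1094 per embryo.

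The cells came from the cortices of 10 embryos at E16.5, each sequenced as 1 single-cell RNA library with the 10x Genomics 3′ chemistry. Of these, 3 were wild type (WT), 4 were heterozygous for the Gatad2b stop allele (stop/+, Het) and 3 were homozygous (stop/stop, KO). The stop allele is the gene trap Gatad2b tm1a(EUCOMM)Hmgu on a C57BL/6N-A tm1Brd background. It is carried in the germline and therefore by every cell of the embryo, so a difference measured in these cells cannot be assigned to loss of the gene in them. The trap cassette is inserted in an intron with all exons left in place, so 3′ UMIs of Gatad2b need not vanish in KO embryos. The labels do not give the sex of the embryos. The names of the deposited libraries carried 1 of 2 prefixes, whose meaning is not stated. All WT embryos and Het replicate 4 shared one prefix, and all KO embryos and Het replicates 1 to 3 shared the other. Genotype and prefix therefore cannot be told apart in the comparison of KO with WT, and KO is also compared below with the 3 Het embryos of its own prefix.

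Corticothalamic neurons of layer VI are among the first neurons born in the cortical plate and send their axons to the thalamus. The transcription factors TBR1, SOX5, FOXP2 and ZFPM2 (FOG2) are characteristic of them, whereas FEZF2 and BCL11B (CTIP2) are best known for specifying the subcerebral projection neurons of layer V and are also made in layer VI. GATAD2B (p66β) is a subunit of NuRD, a chromatin complex that joins a nucleosome remodeler to a histone deacetylase.

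The chosen cells held between 12616175 and 24476596 UMIs in sum per embryo. The median UMIs per cell were 17851.5 to 22576 in WT embryos, 18784 to 20879 in Het embryos and 21632 to 22781 in KO embryos. The kept cells with the highest doublet scores were marked, 0.8% per 1000 kept cells, so libraries with more kept cells had a larger share marked by construction. This marked 8.31 to 10.4% of the chosen cells in WT embryos, 6.63 to 8.23% in Het embryos and 5.50 to 7.65% in KO embryos, and these cells were kept. The threshold set by the doublet caller itself marked 0 to 3.97% of the chosen cells per embryo. Of 7944 distinct barcodes, 3 occurred in more than 1 library. No library went against its label by its Gatad2b level. Each level below is taken from the UMIs summed over the chosen cells of an embryo, so fewer cells with a transcript and less of it per cell cannot be told apart unless a share of cells is given.

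Whether the chosen cells carried layer VI markers that the rule did not use was examined first in the 3 WT embryos, against layer V comparison cells (with Fezf2 and at least 2 UMIs of Ldb2, 223 to 333 per WT embryo) and upper-layer comparison cells (with at least 3 of Cux1, Cux2, Unc5d, Hs6st2, Cdh12 and Rorb, 1352 to 1880 per WT embryo). These levels are a description, because the choice of cells can set them. Foxp2 was at 84.8 ± 13.7 CPM (counts scaled to a fixed total of UMIs per embryo, SD, n = 3) in the chosen cells, against 11.9 ± 3.30 CPM in layer V and 8.97 ± 0.40 CPM in upper-layer cells. Syt6, a synaptotagmin of layer VI, was at 44.9 ± 4.28 CPM against 3.55 and 2.96 CPM, and Zfpm2 was at 93.2 ± 4.91 CPM against 14.5 and 4.20 CPM. Sox5 stood at 591 ± 83.1 CPM against 307 and 115 CPM. Tbr1 was less separating, with 172 ± 17.0 CPM against 80.9 and 105 CPM, and so was the corticothalamic receptor gene Ntsr1, with 19.2 against 12.2 and 13.8 CPM. Cux2 was at 20.2 CPM, near the 15.9 CPM of layer V cells and below the 117 CPM of upper-layer cells.

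**Figure D1:**
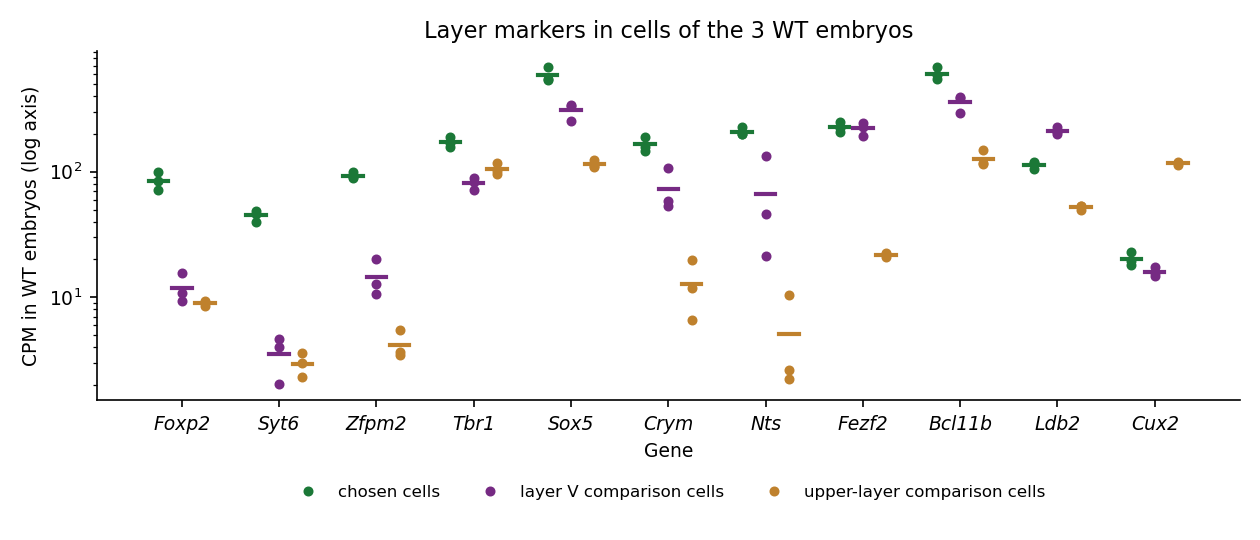
Levels of layer marker genes in the 3 WT embryos, in CPM on a log axis, for the chosen cells and the layer V and upper-layer comparison cells. Each circle is 1 embryo and each bar the mean; Foxp2, Syt6 and Zfpm2 are highest in the chosen cells and Cux2 in the upper-layer cells.

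The 6 genes of the rule did not mark the cells equally. Of the chosen cells, 37.7% had exactly 3 of the 6 genes, 19.7% had 4, 23.8% had 5 and 18.9% had all 6. In WT embryos, cells with exactly 3 genes, the members just inside the threshold, had 25.8 CPM of Foxp2 and 6.5 CPM of Syt6. Cells with exactly 2 genes, just outside it, had 24.6 CPM of Foxp2 and 7.6 CPM of Syt6. Foxp2 then rose to 53.9, 137 and 214 CPM in cells with 4, 5 and 6 genes, and Syt6 to 30.6, 94.0 and 105 CPM. Tbr1 followed the same steps, from 97.7 CPM with 2 genes and 96.3 CPM with 3 genes to 150, 258 and 292 CPM. The data therefore go against the name corticothalamic for the cells with exactly 3 genes, whose Foxp2, Syt6 and Tbr1 were at the level of the cells left out. The whole set is therefore called the chosen cells below, by its rule, and no result below is assigned to corticothalamic neurons alone. Cells with exactly 3 genes also had more UMIs, with a median over embryos of 24173.5 per cell, against 18595 for cells with 5 genes and 18881.25 for cells with 6. The share of members with exactly 3 genes was 40.2 ± 5.34% in WT, 36.2 ± 2.56% in Het and 37.1 ± 5.80% in KO embryos.

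**Figure D2:**
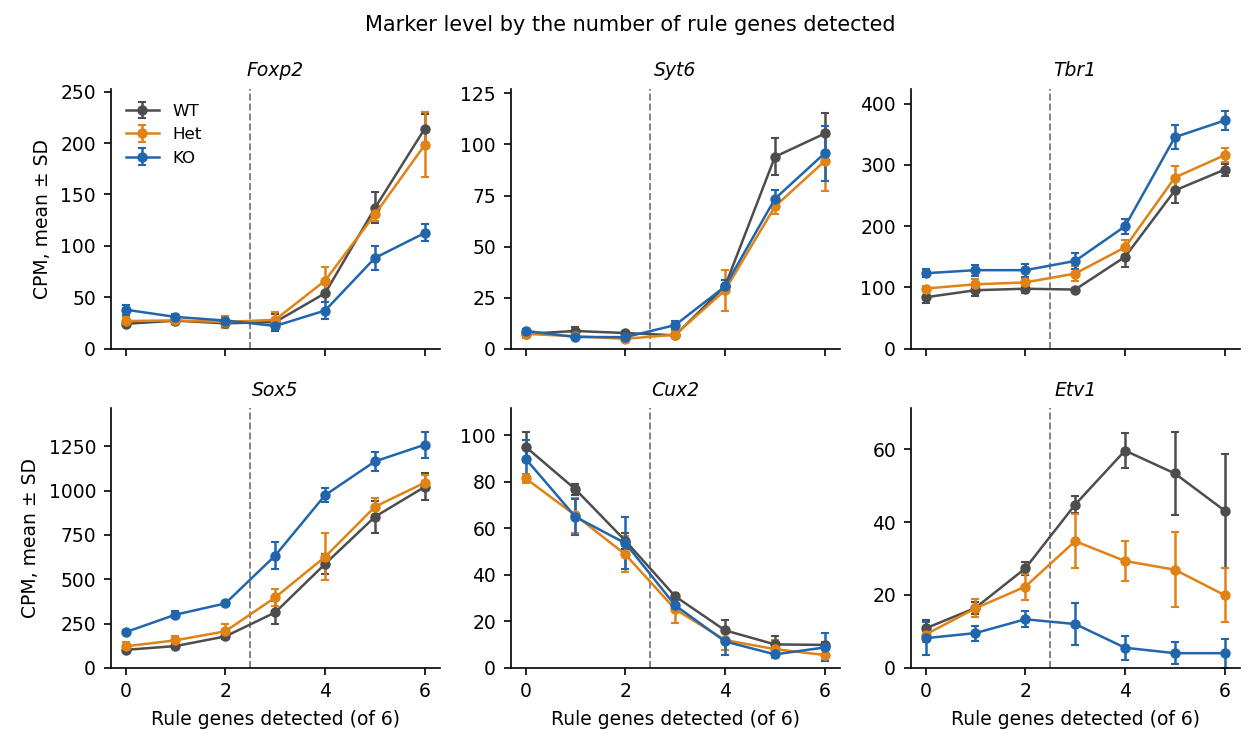
Mean level over embryos of each genotype with SD bars, in CPM, against the number of the 6 rule genes detected in a cell (0 to 6), 1 panel per gene, with the rule's limit as a dashed line. Foxp2 and Syt6 are flat up to 3 genes and rise from 4 genes on, and Etv1 lies lowest in KO at each number. Some rule genes moved with genotype, so cells with the same number need not be alike between genotypes.

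The share of the chosen cells among all kept cells did not separate the genotypes. It was 11.8, 12.8 and 9.16% in WT replicates 1 to 3, 12.7, 10.3, 13.2 and 13.8% in Het replicates 1 to 4, and 15.8, 10.2 and 11.4% in KO replicates 1 to 3. The means were 11.3 ± 1.88% (SD, n = 3), 12.5 ± 1.54% (n = 4) and 12.5 ± 2.97% (n = 3). KO exceeded WT by 1.21 percentage points (two-sided exact permutation test, p = 0.7, where the smallest possible p is 0.1). That difference turned to -0.466 without KO replicate 1, -0.930 at a limit of 5% mitochondrial UMIs and -0.0313 when thinned to 5000 UMIs. Het exceeded WT by 1.22 points (exact p = 0.4), which was 0.175 without WT replicate 3, 1.99 without WT replicate 2 and 1.96 without Het replicate 2. Across the 10 embryos the correlation of the share with the number of stop alleles was r = 0.25 (exact permutation p = 0.481) with Spearman's rho = 0.135 (p = 0.752), and r lay between -0.43 and 0.68 when 2 embryos farthest from the median allele number were left out. Among cells with at least 5000 UMIs, thinned to 5000, the shares were 5.55 to 7.88% in WT embryos, 6.27 to 8.71% in Het embryos and 6.21 to 8.54% in KO. Cells below that depth were left out, more of them in WT than in KO. In WT replicates 1 to 3, 6583 of 8103, 5961 of 7159 and 6195 of 7807 cells remained. In KO replicates 1 to 3, 5525 of 5864, 4692 of 5147 and 5447 of 6176 remained. The rule counts detected genes, of which some varied with genotype, so which cells entered may have moved with genotype as well, and this was not tested.

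**Figure D3:**
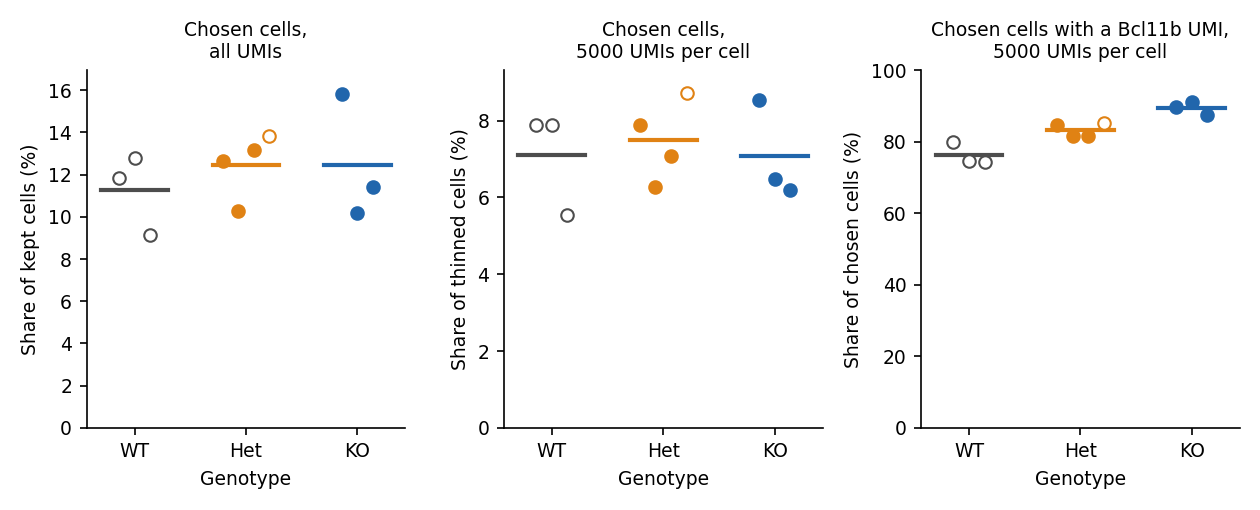
Chosen cells as a percentage of kept cells per embryo, at full depth (left) and among cells with at least 5000 UMIs, thinned to 5000 (middle). The right panel gives the percentage of thinned chosen cells with a Bcl11b UMI. Circles are embryos (open, the library prefix of WT; filled, the prefix of KO) and bars are means; the genotypes overlap in the first 2 panels and not in the third.

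Levels of the rule genes themselves are given only as a description, in normalized CPM (scaled between embryos with the TMM factors of edgeR, the unit of all levels below unless stated). Rprm, a p53-regulated gene of deep layers, was at 387 to 416 in WT embryos, 434 to 532 in Het embryos and 761 to 976 in KO embryos. Hs3st4, a heparan sulfate sulfotransferase gene, was at 217 to 247, 187 to 233 and 147 to 185, and Igfbp3 was at 66.4 to 90.0, 69.5 to 80.9 and 48.4 to 56.4. Tle4 (344 to 413 in WT, 423 to 489 in KO), Nfe2l3 and Nxph3 differed less, and Nfe2l3 and Nxph3 overlapped between WT and KO. When Rprm was left out of the rule, 2244 genes differed between KO and WT, of which 1884 were among the 2525 of the whole set given below.

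Markers of other cell types were present in the chosen cells, not all at low levels, and some differed between KO and WT. In WT embryos the progenitor marker Fabp7 had a mean of 313 CPM, above Foxp2, Syt6, Zfpm2 and Tbr1 but below Sox5. Of all genes tested, 8.95% were lower in KO than in WT. Of 7 interneuron markers tested, 5 were lower in KO than in WT. The summed level of the 7 was 159 to 207 CPM in WT embryos, 196 to 214 in Het embryos and 30.9 to 76.3 in KO embryos. Most of that sum was Npy. Of 9 progenitor markers, 4 were lower in KO than in WT, with sums of 543 to 654, 306 to 548 and 280 to 438 CPM. Of 5 glial and oligodendrocyte precursor markers, 3 were lower, with sums of 25.6 to 37.9, 10.5 to 19.9 and 5.07 to 18.7 CPM. No marker of vascular cells (6 tested), microglia (3 tested of 5) or Cajal-Retzius cells (5 tested) passed the test, nor any of 6 striatal markers other than Six3. Against Het within one prefix, where 2.16% of all genes were lower, Npy was the 1 interneuron marker of 7 that was lower. None of 9 progenitor and 4 glial and oligodendrocyte precursor markers tested passed there. Ttr, the choroid plexus transthyretin gene, was the 1 choroid marker tested and was called lower in KO than in WT. It was at 1546 CPM in 1 WT embryo and at or near 0 elsewhere, so the call rests on that embryo. The 6 erythroid markers, of which the hemoglobin gene Hbb-bs was the highest, summed to 2824 to 3335 CPM in WT embryos, 439 to 2169.5 in Het embryos and 38.4 to 2833 in KO embryos. Hemoglobin genes were left out of the tests, and the 1 erythroid marker tested did not pass. The part of these markers in the results below was not tested.

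Gatad2b (chr3:90293178-90363407, GRCm38, + strand) was checked first. Its level was 140, 130 and 126 in WT replicates 1 to 3, 93.0, 87.8, 86.1 and 93.4 in Het replicates 1 to 4, and 41.0, 47.4 and 48.4 in KO replicates 1 to 3. The genotypes did not overlap, and Het lay between WT and KO in each embryo. Gatad2b was lower in KO by -1.54 ± 0.07 (log2 fold change ± SE; edgeR quasi-likelihood, adjusted p = 7.06e-08) and lower in Het by -0.55 ± 0.06 (edgeR adjusted p = 0.00803). Among the 16 NuRD genes tested, 4 rose in KO against WT, where 8.66% of all genes tested rose. They were the paralogue Gatad2a (41.9 to 46.7 in WT, 58.5 to 67.6 in KO, 0.49), the methyl-CpG binding gene Mbd2 (0.50), the NuRD subunit gene Cdk2ap1 (0.72) and the deacetylase gene Hdac1. Besides Gatad2b the remodeler gene Chd5 fell. Within the KO prefix Gatad2a was higher in KO than in Het (0.45), while Cdk2ap1 (0.13), Hdac1 and Chd5 did not pass the test there and Chd4 rose. Mbd2 was higher by 0.43 there, a call lost without any one of Het replicates 1 and 2 and KO replicates 1 and 2. Cdk2ap1 was at 50.9 to 63.3 in WT and 53.1 in Het replicate 4, which has the prefix of WT, against 81.9 to 95.4 in the other Het embryos, and its change against WT did not pass with prefix as a covariate (0.00446). That of Mbd2 did not pass when cells were thinned.

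Between KO and WT, 2525 of 14338 tested genes passed an edgeR adjusted p below 0.05 with a log2 fold change beyond 0.25. Of all tested genes 8.66% were higher in KO and 8.95% were lower. Between KO and the 3 Het embryos of the same prefix, 674 of 13903 genes passed, with 2.69% of all tested higher and 2.16% lower. These shares of all genes are the background for the list counts in the 2 comparisons. The lists share some genes, among them Sox4, Sox11, Crym, Lmo4 and Efna5, so their counts are not separate from each other. With library prefix as a covariate, where Het replicate 4 alone separates prefix from genotype, 557 genes differed between KO and WT. Among cells with at least 4 of the 6 genes the number was 2369, of which 1905 were among the 2525.

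Genes named for the size of their change between KO and WT had to have KO embryos that overlapped neither WT nor Het replicates 1 to 3. For these genes the lack of overlap and the difference from Het within one prefix were therefore largely set by the choice. The largest decrease by fold among the named genes was in Nts, which encodes the neuropeptide neurotensin (chr10:102481756-102490486, GRCm38, - strand). Nts was at 198, 199 and 222 in the WT embryos, at 76.3, 99.2, 86.0 and 51.6 in Het replicates 1 to 4, and at 0.705, 1.24 and 15.6 in the KO embryos. Each Het embryo lay below each WT embryo and above each KO embryo. The change was -5.16 ± 0.56 between KO and WT (edgeR adjusted p = 6.36e-05) and -3.92 ± 0.57 between KO and Het within one prefix (edgeR adjusted p = 0.00339). With each cell thinned to 5000 UMIs, 7.14 to 7.80% of the chosen cells held an Nts UMI in WT embryos, 2.27 to 7.29% in Het embryos and 0.192 to 0.718% in KO embryos. None of 128 microglia pooled over all embryos and genotypes did, which allows a share of up to 2.34% at this depth. Only 15, 11 and 12 of them came from WT replicates 1 to 3, so this limit does not hold for WT embryos alone. In layer V cells the thinned share went from 3.92 to 6.39% in WT to 0% in each KO embryo, and the difference between the effects in chosen and layer V cells did not pass the test.

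Of the 20 genes named for the size of their change between KO and WT, 15 were found in the RefSeq promoter table (250 bases before to 50 after the start, GRCm38.p6), and these windows were searched on both strands for the letters of an AP-1 element (TGANTCA), a CRE (TGACGTCA) and a palindromic NFI site (TTGGC and GCCAA with any 5 letters between them), since genes of the Fos and Jun, and NFI families differed between genotypes below. Nts alone held the first and none held the others. In all 32851 promoters of that length the shares with a match were 7.81%, 1.79% and 0.0365%. The 1 AP-1 match among 15 promoters is near the first of these shares. The upstream part of the Nts window is shown 5′ to 3′ on the gene's strand (chr10:102490487-102490668, GRCm38.p6, - strand, RefSeq), with the AP-1 letters in capitals.
Nts promoter: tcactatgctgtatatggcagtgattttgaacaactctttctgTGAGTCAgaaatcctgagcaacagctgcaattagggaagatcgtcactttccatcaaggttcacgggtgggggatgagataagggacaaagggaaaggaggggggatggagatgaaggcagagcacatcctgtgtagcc
The match begins 207 bases before the RefSeq start and is a match of letters only.

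Etv1 (chr12:38779380-38870484, + strand), an ETS transcription factor gene known from layer V neurons, showed the next largest decrease. This ranking covers only the genes named for the size of their change between KO and WT, each with a mean of at least 20 CPM. It was at 46.8, 56.8 and 43.1 in WT, 29.5, 30.3, 36.7 and 22.3 in Het and 10.4, 7.75 and 5.43 in KO embryos. No Het embryo overlapped with WT or with KO, though the difference between Het and WT did not pass the test. Etv1 was lower in KO by -2.61 ± 0.21 against WT (edgeR adjusted p = 6.36e-06) and by -2.01 ± 0.18 against Het within one prefix, and by -3.54 in cells with at least 4 of the 6 genes. In thinned cells the share with an Etv1 UMI was 12.7 to 16.0% in WT and 1.53 to 2.44% in KO embryos, the latter near the 1.13 to 1.83% of KO upper-layer cells. Cntn6, an adhesion molecule gene of the immunoglobulin family, was at 7.83 to 9.59 in WT embryos, 1.94 to 4.07 in Het embryos and 0.529 to 2.09 in KO embryos (-3.03).

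Nr4a2 (Nurr1), an orphan nuclear receptor gene of subplate and layer VI neurons, was at 143, 131 and 167 in WT, 141, 166, 157 and 121 in Het and 57.0, 73.0 and 66.4 in KO embryos. Only the KO embryos stood apart, and the change was -1.17 ± 0.12 against WT and -1.25 against Het. Akap7, which encodes an anchor of protein kinase A, fell by 1.61 (55.6 to 61.4 in WT, 18.2 to 20.4 in KO). Necab1, Ndrg2 and the protocadherin gene Pcdh7 fell by 1.06, 1.04 and 1.04, and Itpr1, the endoplasmic reticulum calcium channel gene, fell by 1.04. The neuropeptide gene Npy was at 189, 132 and 131 in WT, 204, 191, 184 and 179 in Het and 66.3, 70.8 and 17.1 in KO embryos. Its decrease was -1.55 ± 0.34 (edgeR adjusted p = 0.00638) against WT, did not pass with library prefix as a covariate, and was -1.92 against Het within one prefix. Npy is also an interneuron marker, and Lhx6, Gad1 and Gad2 were among the other interneuron markers that were lower in KO than in WT.

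Mc4r, the melanocortin receptor gene, showed the largest increase among the named genes. Its level was 17.6, 15.5 and 11.1 in WT, 27.5, 19.3, 22.9 and 25.2 in Het and 83.9, 86.3 and 72.8 in KO embryos. The 3 genotypes did not overlap. The increase was 2.44 ± 0.14 against WT (edgeR adjusted p = 7.41e-07) and 1.79 ± 0.11 against Het within one prefix (edgeR adjusted p = 5.57e-05). In thinned cells, 5.96 to 7.91% of the chosen cells held an Mc4r UMI in WT and 27.2 to 30.3% in KO embryos. The share was 0.324 to 0.970% in KO upper-layer cells and 0.781% in the microglia pooled over genotypes.

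Acvr1c, an activin receptor gene (8.61 to 12.3 in WT, 12.8 to 18.9 in Het, 34.8 to 39.3 in KO), rose by 1.73, and Dpy19l1 (84.0 to 95.6 in WT, 96.9 to 133 in Het, 250.3 to 266 in KO) by 1.53. Kirrel3, an adhesion molecule gene, was at 41.7 to 45.6 in WT and 91.6 to 111 in KO (1.21), and Kcnip1, a gene for a potassium channel interacting protein, at 13.2 to 13.5 and 30.9 to 32.6 (1.25). Tmem50b, Fxyd7, Ifitm2, Tmem176b and the BAF complex gene Dpf3 rose by 1.38, 1.30, 1.28, 1.27 and 1.27. These genes also passed against Het within one prefix, where the call of Fxyd7 was lost without KO replicate 2.

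**Figure D4:**
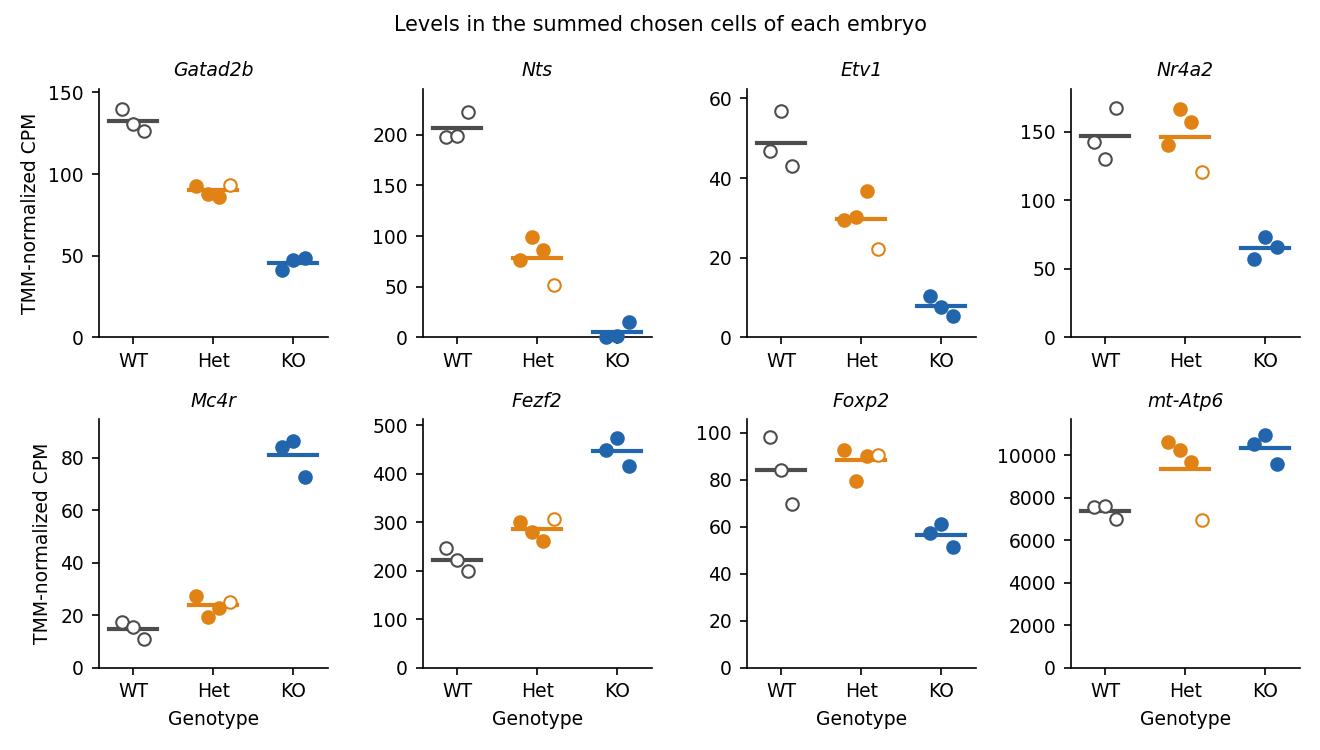
Normalized CPM of selected genes in the chosen cells of each embryo, 1 panel per gene. Open circles are embryos of the WT library prefix, filled circles those of the KO prefix, and bars are means. Het embryos lie between WT and KO for Nts, Etv1, Gatad2b, Mc4r and Fezf2, while mt-Atp6 follows the prefix. The Het differences from WT of Etv1 and Fezf2 did not pass the test. No gene passed between Het and WT with prefix as a covariate.

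The genes known for the corticothalamic class moved in both directions in KO. Of 14 tested, 6 rose and 4 fell against WT (4 and 3 against Het within one prefix), with a median log2 fold change of 0.15, where the median of all genes was -0.01. Tbr1 (chr2:61802930-61814114, + strand), the T-box factor of layer VI, was at 189, 169 and 152 in WT, 212, 205, 186 and 200.1 in Het and 240.0, 266 and 228 in KO embryos. The KO embryos were all above the WT embryos, and the increase of 0.52 ± 0.08 passed (edgeR adjusted p = 0.000786), but not with prefix as a covariate. Against Het within one prefix the increase was 0.28 (edgeR adjusted p = 0.0356), and it did not pass without Het replicate 2, Het replicate 3, KO replicate 1 or KO replicate 2. Sox5, which sets the timing of deep-layer differentiation, was at 683, 538 and 532 in WT, 724, 606, 605 and 760 in Het and 962, 993 and 899 in KO embryos (0.70 ± 0.11, and 0.56 against Het within one prefix). Sla, the gene of a Src-like adaptor, rose from 85.6 to 119 in WT to 218 to 262 in KO embryos (1.15 ± 0.13), and Wnt7b, a Wnt ligand gene, rose by 0.75.

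Foxp2 (chr6:14901349-15441977, + strand) went the other way. It was at 98.3, 84.2 and 69.6 in WT, 92.7, 79.6, 90.1 and 90.7 in Het and 57.3, 61.1 and 51.2 in KO embryos. WT and Het overlapped and KO lay below both. Foxp2 was lower by -0.58 ± 0.11 against WT (edgeR adjusted p = 0.00258), which did not pass with prefix as a covariate, and by -0.64 ± 0.07 against Het within one prefix (edgeR adjusted p = 0.00106). In thinned cells, 26.4 to 32.8% held a Foxp2 UMI in WT embryos, 26.4 to 31.7% in Het embryos and 18.8 to 19.8% in KO embryos. The share in the microglia pooled over genotypes was 3.91%. By the number of rule genes detected, the WT and KO means were 25.8 and 22.0 CPM with 3 genes, 137 and 88.2 CPM with 5 genes, and 214 and 113 CPM with 6 genes. The rule genes Rprm, Hs3st4 and Igfbp3 themselves moved with genotype. Cells with the same number of rule genes therefore need not be alike in WT and KO. Crym, the gene of the thyroid hormone binding protein mu-crystallin, was at 147 to 185 in WT and 101 to 123 in KO embryos. It was lower by -0.50 ± 0.12, a call lost with prefix as a covariate, and by -0.62 against Het, where the call was lost without Het replicate 3. Sema3e, a semaphorin ligand gene, fell by 1.75 (5.37 to 6.68 in WT, 1.57 to 1.89 in KO). The last of the 4 was Ntsr1. Within one prefix 4 of the corticothalamic genes rose (Tbr1, Sox5, Sla and Wnt7b) and 3 fell (Sema3e, Foxp2 and Crym).

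Among 12 genes of subcerebral layer V neurons, 2 rose and 4 fell in KO against WT, and also against Het within one prefix, where Pcp4 and not Cntn6 was among the 4. The 2 that rose were the regulators themselves. Fezf2 (chr14:12342094-12348189, - strand), a zinc finger factor of deep layers, was at 247, 222 and 200.4 in WT, 299.6, 280.4, 262 and 306 in Het and 449, 474 and 415 in KO embryos. Every Het embryo lay above every WT embryo and below every KO embryo. Fezf2 was higher by 1.00 ± 0.08 against WT (edgeR adjusted p = 6.98e-06) and by 0.67 against Het within one prefix, while the difference between Het and WT did not pass. Bcl11b (chr12:107910403-108003602, - strand) was at 684, 585 and 529 in WT, 714, 674, 691 and 744 in Het and 916, 985 and 912 in KO embryos (0.65 ± 0.08, edgeR adjusted p = 0.000153, and 0.43 against Het). Of the chosen cells thinned to 5000 UMIs, 79.9, 74.5 and 74.4% held a Bcl11b UMI in WT, 84.6, 81.6, 81.7 and 85.2% in Het and 89.7, 91.2 and 87.4% in KO embryos. KO exceeded WT by 13.2 points (two-sided exact permutation test, p = 0.1, the smallest possible), Het exceeded WT by 7.03 points (exact p = 0.0286, the smallest possible, but 3.49 points with p = 0.0857 in cells with at least 4 of the 6 genes and 3.29 points with p = 0.229 with Rprm left out of the rule), and KO exceeded Het within one prefix by 6.79 points (exact p = 0.1). The share in the microglia pooled over genotypes was 23.4%. The difference between KO and WT was 8.45 points without thinning, 7.45 points in cells with at least 4 of the 6 genes and 8.29 points with Rprm left out of the rule.

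Upper-layer, areal and subplate lists were set beside these. Of 17 upper-layer genes none rose and 8 fell in KO against WT, with a median of -0.31. The POU factor gene Pou3f2 (Brn2) was at 192, 167 and 148 in WT and 85.3, 112 and 96.4 in KO embryos (-0.79). Pou3f1 fell by 0.68, the semaphorin receptor gene Plxna4 by 0.65 and the adhesion gene Nectin3 by 0.60. The calls of Pou3f2 and Pou3f1 were lost with prefix as a covariate and that of Nectin3 when cells were thinned to 5000 UMIs (-0.35), and against Het within one prefix Pou3f2 was the 1 gene of the 17 that fell (-0.64), a call lost without Het replicate 3, KO replicate 1 or KO replicate 3. Of 14 genes with an areal pattern, 1 rose and 6 fell (median -0.39), and 1 rose and 4 fell within one prefix. Efna5, an ephrin ligand gene that is graded across cortical areas, was at 19.4 to 22.2 in WT embryos, 16.1 to 18.4 in Het embryos and 5.44 to 7.05 in KO embryos. It fell by 1.77 against WT (edgeR adjusted p = 7.41e-07) and by 1.54 against Het within one prefix. Tenm3, a teneurin of wiring specificity, and Etv5, an ETS factor downstream of FGF signalling, fell by 0.84 and 0.90, the latter call lost when cells were thinned. Id2, an inhibitor of bHLH factors, was higher by 0.57, a call lost with prefix as a covariate. Of 7 subplate genes tested 1 rose and 1 fell, and within one prefix Nr4a2 fell and none rose. A list of 7 is too short to set 1 call each way apart from the 8.66% and 8.95% of all genes.

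Of 37 axon guidance genes 6 rose and 5 fell in KO against WT (median 0.07), where 8.66% of all genes rose and 8.95% fell. Within one prefix 5 rose and 3 fell, where 2.69% of all genes rose and 2.16% fell. Robo1, a Slit receptor gene, was at 75.7 to 109 in WT and 150.2 to 176 in KO embryos (0.78). That call was lost with prefix as a covariate, and the call against Het was lost without Het replicate 3 or KO replicate 2. The netrin receptor gene Dcc and the ephrin receptor gene Epha5 were among those that rose in both comparisons, and the semaphorin receptor gene Nrp1 and Efna5 among those that fell.

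Of 30 neurotransmitter receptor genes tested, 4 rose and 10 fell in KO against WT (median -0.29) and the others did not pass, and 2 rose and 4 fell within one prefix. The GABA-A receptor subunit gene Gabrb1 was at 55.5, 60.5 and 70.6 in WT and 30.6, 26.5 and 36.7 in KO embryos (-0.98). Gabra3 fell by 1.00 and the kainate receptor gene Grik4 by 1.04, both without passing when prefix was a covariate. Grin2b, the NMDA receptor subunit gene of the embryonic brain, was at 549, 539.6 and 470.4 in WT, 432, 429.7, 428 and 527 in Het, and 389.6, 389 and 389.6 in KO embryos (-0.42). Het replicate 4 sat with the WT embryos whose prefix it shares, and the call was lost with prefix as a covariate.

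Of 28 ion channel genes, 2 rose and 8 fell (median -0.13), and 2 rose and 3 fell within one prefix. The 2 of 28 that rose against WT are near the 8.66% of all genes. Scn3a, the sodium channel gene of embryonic neurons, was at 113, 123 and 114 in WT, 113, 109.8, 114 and 103 in Het and 54.5, 57.7 and 62.0 in KO embryos. Het overlapped with WT, and each KO embryo lay below all others. Scn3a was lower by -1.01 ± 0.06 against WT (edgeR adjusted p = 1.15e-06) and by -0.95 against Het within one prefix. Cacna1g, a gene of T-type calcium channels, rose by 0.84, a call lost when cells were thinned to 5000 UMIs.

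Genes of the NFI and SOX transcription factors were examined next. Of 9 tested, 6 rose and none fell in KO against WT (median 0.39), and 4 rose and none fell within one prefix. Nfia, an NFI factor of deep-layer and glial programs, was at 473, 478 and 406 in WT, 798, 719, 749 and 595 in Het and 1009, 1078 and 958 in KO embryos. The genotypes did not overlap, and Nfia passed in KO against WT (1.16), in Het against WT (0.66) and in KO against Het within one prefix (0.43). Nfib was at 2062 to 2483 in WT and 3196 to 3398 in KO embryos (0.52). Of 20 genes of immature neurons 5 rose and 1 fell in KO, and of 25 genes of maturing neurons 2 rose and 4 fell, against medians of 0.14 and 0.02. Sox4 and Sox11, 2 of the 5, also count among the NFI and SOX genes. The 2 of 25 that rose are near the 8.66% of all genes. None of the calls in the immature and maturing neuron lists recurred against Het within one prefix, where Tiam2 was the 1 gene of both lists that passed. Mapt, the tau gene, fell by 0.42, a call lost with prefix as a covariate.

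Immediate early genes respond within minutes to activity or to tissue dissociation. Of 14 tested, 9 rose and none fell in KO against WT (median 0.76), and 5 rose within one prefix. Jun was at 75.5, 75.7 and 66.8 in WT, 113, 96.4, 109 and 91.7 in Het and 152, 173 and 146 in KO embryos (1.11, and 0.56 against Het). Fosb was at 17.9, 17.5 and 14.3 in WT, 40.5, 44.5, 43.3 and 17.8 in Het and 39.0, 47.2 and 41.7 in KO embryos. Its level followed the prefix, with Het replicate 4 among the WT embryos, and the change against Het within one prefix was -0.01. The linker histone gene Hist1h1e (57.0, 42.0 and 52.4 in WT, 105, 97.9, 91.5 and 60.6 in Het, 105, 97.8 and 96.1 in KO), Rpl38 (2366 to 2716 in WT, 2428 in Het replicate 4, 1636 to 1886 in the other Het embryos, 1419 to 1943 in KO) and mt-Atp6 (7002 to 7602, 6980.4, 9689 to 10616 and 9574 to 10943) showed the same arrangement. For these 4 genes genotype and prefix cannot be told apart in KO against WT, and none passed against Het within one prefix. Of 77 ribosomal protein genes 14 rose and 6 fell in KO against WT, and of 13 mitochondrially encoded genes 6 rose. Of 95 oxidative phosphorylation genes 7 rose and 8 fell, which, like the 6 ribosomal protein genes that fell, is near the 8.66% and 8.95% of all genes tested. These 3 lists had no call within one prefix, where 2.69% of all genes were higher and 2.16% lower. Of 21 histone genes 6 rose and 2 fell, and 3 rose within one prefix.

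Het embryos were compared with WT in the same way. Of 14338 genes, 12 were higher and 15 lower in Het (edgeR), which is 0.0837% and 0.105% of those tested, and 2297 genes had an unadjusted p below 0.05. DESeq2 called 190 genes. Besides Gatad2b and Nfia, the genes that passed included Osbpl1a, an oxysterol binding protein gene, which was at 54.2, 60.5 and 53.7 in WT, 38.6, 42.8, 40.7 and 40.5 in Het and 34.3, 35.3 and 37.9 in KO embryos (-0.47, edgeR adjusted p = 0.0106). Fos was at 24.4, 16.9 and 18.7 in WT and 67.5, 50.9, 46.2 and 31.6 in Het embryos (1.29 ± 0.21, edgeR adjusted p = 0.0362). Jun, Jund and Dusp1 were the other immediate early genes that rose, 4 of 14 in all. H3f3b, the gene of the replacement histone H3.3, was at 1772 to 1854 in WT embryos, 2031 to 2405 in Het embryos and 2782 to 2846 in KO embryos (0.32 in Het). None of the corticothalamic, subcerebral, upper-layer, areal, receptor and axon guidance lists had a call. The calls of Fos, Jun, H3f3b and Itpr1 were lost in cells with at least 4 of the 6 genes and with Rprm left out of the rule. No gene passed in edgeR when prefix was a covariate (1092 genes at an unadjusted p below 0.05) or when WT replicate 2 was left out (1800). The change of Gatad2b itself lay between -0.71 and -0.50 in the 23 alternatives. Without WT replicate 3, 3 genes passed, without Het replicate 1, 1 gene, and without Het replicate 4, 622 genes.

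The KO effect in the chosen cells was then compared with that in the layer V and upper-layer cells of the same embryos. The test took the difference between chosen and comparison cells within each embryo and compared it between KO and WT. Against layer V, 674 of 13856 genes differed, with the change in the chosen cells higher in 3.27% and lower in 1.59% of all tested. Against upper-layer cells, 1420 of 14723 differed, 4.91% higher and 4.73% lower. Genes used to choose the cells were left out. The comparison cells were themselves chosen by genes that moved with genotype. In the chosen cells Fezf2 was higher in KO, as given above, and Cux1 was lower by -0.34, and the layer V cells also had to hold fewer than 3 of the 6 rule genes, of which Rprm was higher in KO. Layer V cells were 223 to 333 of 7159 to 8103 kept cells in WT embryos and 314 to 415 of 5147 to 6176 in KO embryos. The rules may thus have let in different cells in each genotype, and in the values that follow such a difference in selection cannot be told apart from a change within a class.

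Gabra5, the subunit gene of extrasynaptic GABA-A receptors (chr7:57407672-57510059, - strand), was on average at 30.6 in WT and 21.0 in KO chosen cells, at 33.5 and 5.29 in layer V cells and at 11.3 and 1.50 in upper-layer cells. In the chosen cells alone WT and KO embryos overlapped and the change did not pass the test. The KO change in the chosen cells was higher by 2.12 than in layer V and by 2.35 than in upper-layer cells on the log2 scale, and both differences passed in each of 20 alternatives. Cdh6, a cadherin gene (chr15:13028701-13173675, - strand), rose from 27.7 to 52.2 in the chosen cells and went from 24.2 to 11.1 in layer V and from 17.5 to 5.45 in upper-layer cells. The differences were 2.01 (edgeR adjusted p = 9.36e-06) and 2.58 (edgeR adjusted p = 1.43e-07), the first lost when cells were thinned to 5000 UMIs. Cacna1e, a voltage-gated calcium channel gene, did not separate the genotypes in the chosen cells and was at 125 in WT and 128 in KO chosen cells, whereas it went from 74.6 to 33.0 in layer V and from 28.4 to 6.46 in upper-layer cells. Pcsk2, a prohormone convertase gene, went from 48.1 to 34.6 in the chosen cells and from 41.1 to 8.70 in layer V cells, a difference of 1.67, whereas the difference of -0.09 from its change in upper-layer cells did not pass. Of 30 receptor genes, 15 had a higher KO change in the chosen cells than in layer V and none a lower one, with a median difference of 0.54.

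Etv1 had a lower KO change in the chosen cells, where its mean went from 48.9 to 7.86, than in layer V, from 34.9 to 12.7, and in upper-layer cells, from 6.11 to 4.24. The difference of -2.15 against upper-layer cells passed in every alternative. The difference of -1.26 against layer V did not pass with DESeq2, at a limit of 5% mitochondrial UMIs, when cells were thinned, or without WT replicate 2, KO replicate 1 or KO replicate 3. Mc4r went from 14.8 to 81.0 in the chosen cells, from 7.61 to 18.6 in layer V and from 1.52 to 2.40 in upper-layer cells. The differences were 1.75 against upper-layer cells, held in every alternative, and 1.15 against layer V, which did not pass without WT replicate 2, at a limit of 5% mitochondrial UMIs or when cells were thinned. Scn3a, which fell from 117 to 58.1 in the chosen cells, was at 107 in WT and 106 in KO upper-layer cells, a difference of -1.004. Against layer V the difference was -0.39, a call lost when cells were thinned. Nr4a2 went from 147 to 65.5 in the chosen cells and from 45.3 to 53.3 in upper-layer cells, a difference of -1.43. In layer V cells it went from 68.9 to 31.4, and the difference of -0.11 from that change did not pass (edgeR adjusted p = 0.871).

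Oma1, a mitochondrial protease gene, and Ezr, the ezrin gene, had lower KO changes in the chosen cells than in both other classes, and each of these differences passed in 20 alternatives. Oma1 went from 37.3 to 28.1 in the chosen cells, from 67.0 to 99.4 in layer V and from 25.2 to 53.3 in upper-layer cells, and Ezr from 43.7 to 39.5, from 20.8 to 47.0 and from 29.1 to 52.7. The decrease of Oma1 in the chosen cells themselves did not pass with library prefix as a covariate or without WT replicate 2 or KO replicate 1. Among the NFI and SOX genes, 4 of 9 had a lower KO change in the chosen cells than in layer V. Nfib, for example, went from 2292 to 3295 in the chosen cells and from 1275 to 2933 in layer V, and Sox5 from 585 to 951 and from 305 to 718 (a difference of -0.56, lost when cells were thinned). Fezf2 was used to choose the layer V cells and has no such test. Of 10 subcerebral genes tested, 6 had a lower KO change in the chosen cells than in upper-layer cells and none a higher one. Bcl11b was among the 6, and its difference from layer V did not pass. Of 14 corticothalamic genes, Foxp2, Sox5 and Wnt7b had a lower KO change than in upper-layer cells, and Crym and Sla a higher one.

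**Figure D5:**
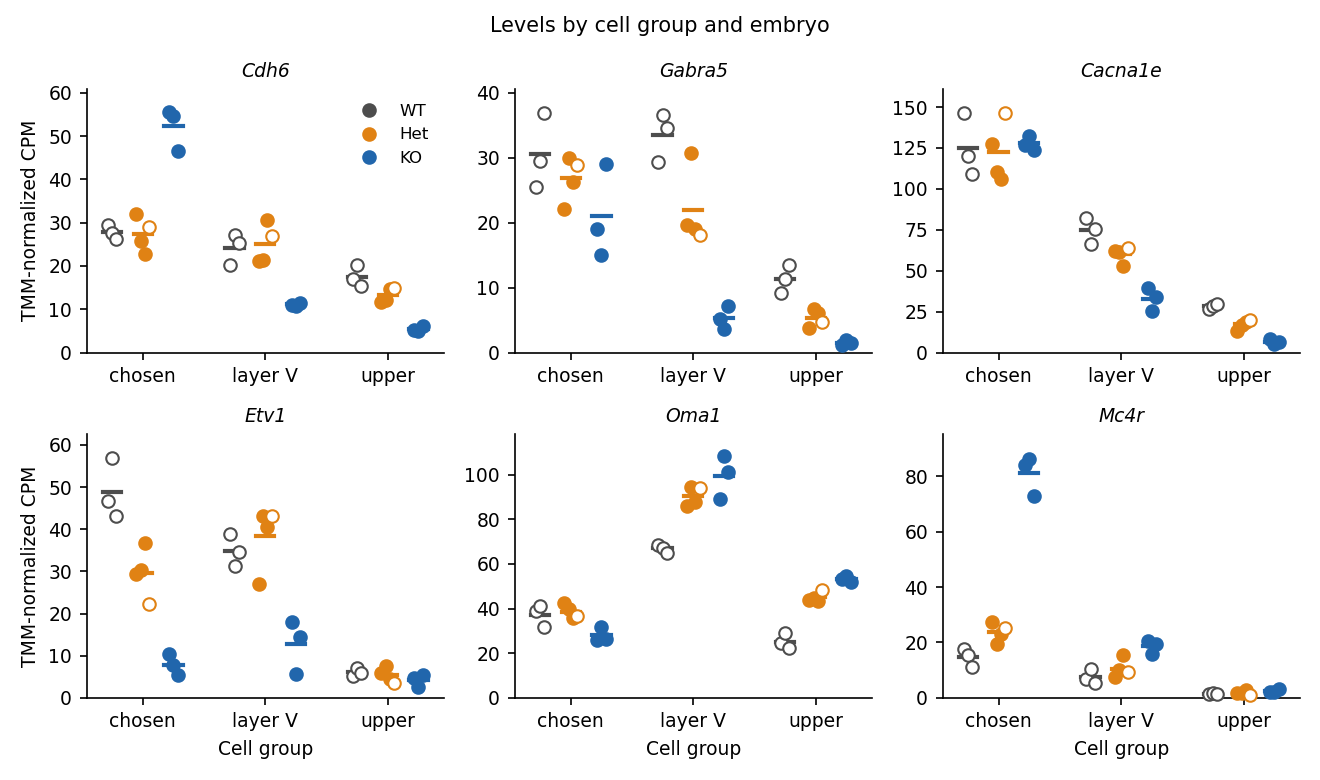
Normalized CPM in WT, Het and KO embryos for chosen, layer V and upper-layer cells, 1 panel per gene. Circles are embryos (open, the WT library prefix; filled, the KO prefix) and bars are means; Cdh6 is highest in KO in the chosen cells and lowest in KO in the other 2 classes, and the WT and KO embryos of Gabra5 overlap only in the chosen cells.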

How the data were processed

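The authors generated 1 Chromium single-cell 3′ library (reagents v3) per E16.5 cortex, and the deposited files hold raw UMI counts per gene and barcode, not normalized, for 31053 genes on mm10. The submitters' processing notes name Cell Ranger 6.0.2, whereas the study's methods name another version. The study tested genes with cells as units. Here the embryo was the replicate, since the study's methods describe separate embryos and each label names a separate library.

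Barcodes below 1000 UMIs or above 10% mitochondrial UMIs were dropped, and no column of the count tables was left unused (0). The chosen cells, gene lists and tests were set with earlier results of these data known. UMIs of the chosen cells were summed per embryo and fitted across all genes with edgeR 4.0.16 (quasi-likelihood test, filterByExpr, TMM, limma 3.58.1, R 4.3.3). A gene was called at a Benjamini-Hochberg adjusted p below 0.05 with an absolute log2 fold change above 0.25. All 10 embryos entered one fit for KO against WT and Het against WT, and 6 entered that within one prefix. Differences between cell groups were fitted with the embryo as a block. The 13 genes of the rule and 18 sex-linked, hemoglobin and ribosomal DNA genes were left out of the tests. Layer V comparison cells had Fezf2, at least 2 UMIs of Ldb2, no Eomes and fewer than 3 of the 6 rule genes. Upper-layer comparison cells also had Neurod6, no Eomes or Mki67 and fewer than 2 of the 6.

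Shares were compared by two-sided exact permutation tests over embryos. To compare shares of cells with a UMI, cells were thinned to 5000 UMIs, which left out 227 of the chosen cells. Microglia were kept cells with at least 3 of 5 markers, pooled over all embryos and genotypes. Intervals and limits cover counting error only. Doublets were marked by their Scrublet score in scanpy 1.11.5, as a share set by the number of kept cells, and kept. Named genes were the 10 largest changes each way (KO against WT), the 5 largest each way (Het against WT and differences between cell groups), each with a mean of at least 20 CPM and, for genotypes, no overlap between the embryos compared, and up to 4 per list. For KO against WT, no overlap of KO with Het replicates 1 to 3 was also required. Other genes are named only as members of lists. Scripts were tested on simulated data. DESeq2 1.42.0, other scalings and filters, thinning, stricter rules, the prefix as a covariate and each embryo left out were tried as alternatives.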

Additional observations from a re-analysis of the deposited data

Results flagged for a closer look

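Of 112 values tested in the 4 Het embryos, 8 had 1 embryo far from the other 3, where chance gives about 1 in 20. In Het replicate 4, Sdhd was at 52.5 normalized CPM (67.5 to 69.7 in the others), Fosb at 17.8 (40.5 to 44.5) and Grin2b at 527 (428 to 432), and this embryo has the library prefix of WT. In Het replicate 3, Grin2d was at 2.69 (1.56 to 1.73) and Cntn6 at 4.07 (1.94 to 2.26). In Het replicate 2, Akap7 was at 58.9 (44.3 to 45.6) and Ezr at 35.1 (42.6 to 44.0). In Het replicate 1, Dusp1 was at 33.0 (29.5 to 29.9).

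The comparison classes were chosen by genes that moved with genotype (Fezf2 and Cux1), so a difference in selection cannot be told apart from a change within a class. The KO effect differed between chosen and layer V cells, by the edgeR test of the difference of log2 changes, by 2.12 for Gabra5, 2.01 for Cdh6, 1.67 for Pcsk2, -1.26 for Etv1 (lost with DESeq2, at a limit of 5% mitochondrial UMIs, thinned, or without WT replicate 2, KO replicate 1 or KO replicate 3), -1.30 for Ezr, -1.37 for Tmem176b, -1.17 for the bHLH factor gene Nhlh2 and -1.10 for Rbm24. The calls of Cdh6, Tmem176b, Nhlh2 and Rbm24 were lost when cells were thinned, that of Nhlh2 also without marked doublets and at the 5% limit, and that of Tmem176b also in cells with at least 4 of the 6 rule genes. Against upper-layer cells the differences were 3.35 for Npy, 2.58 for Cdh6, 2.35 for Gabra5, 2.15 for Cacna1e, -2.15 for Etv1, -1.59 for Nhlh2, -1.57 for Ttc39b, -1.52 for Hist1h1b and -1.52 for Oma1, where the call of Npy was lost at the 5% limit. The vascular markers Cldn5 (5.36 against layer V, 2.25 against upper-layer cells) and Rgs5 (4.66 against layer V) are also in this group. Cldn5 was at 33.5 in WT and 26.2 in KO chosen cells, at 20.8 and 0.351 in layer V, and at 3.20 and 0.465 in upper-layer cells, and both of its calls were lost without marked doublets, WT replicate 3, KO replicate 1 or KO replicate 2. The call of Rgs5 was lost without marked doublets, WT replicate 2, KO replicate 1 or KO replicate 2, and that of Hist1h1b without WT replicate 1, KO replicate 2 or KO replicate 3, at the 5% limit and thinned.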

How the results depend on the processing

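The shares of chosen cells changed direction with the settings. KO minus WT became -0.930 points at a limit of 5% mitochondrial UMIs and -0.0313 when thinned. KO minus Het within one prefix became -0.981, -0.00353 and, without Rprm in the rule, -0.0844, and the trend over alleles became r = -0.202 (5% limit) and -0.0118 (thinned). With each embryo left out they lay between -0.466 and 2.36, -1.24 and 1.58, and -0.0501 and 0.472. Het minus WT was 0.380 thinned, 0.637 with at least 3000 UMIs, 0.642 at the 5% limit and 0.175 to 1.99 with embryos left out. The share with a Bcl11b UMI differed between KO and WT by 16.0 points thinned to 3000 UMIs, 8.45 not thinned, 7.45 with at least 4 of 6 genes and 8.29 without Rprm in the rule. KO minus Het was 9.65, 3.35 and 4.38 under the first 3 of these, and Het minus WT was 3.49 (exact p = 0.0857) with at least 4 of 6 genes and 3.29 (exact p = 0.229) without Rprm, and 6.09 to 8.85 with embryos left out.

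Genes called between KO and WT were 557 with library prefix as a covariate and 1357 thinned. Between Het and WT they were 190 with DESeq2, 213 without a filter, 644 with the replicate block, 8 with only these groups in the fit, 0 with prefix as a covariate (1092 at an unadjusted p below 0.05), 73 thinned and 48 with Neurod2 and Neurod6 required (chosen after seeing the data, as was the rule without Rprm at the same minimum), and 0 to 622 with embryos left out. Between KO and Het within one prefix they were 377 (without Het replicate 3) to 656, with 416 without Het replicate 2 and 428 without KO replicate 2. Against layer V they were 356 with DESeq2, 1047 without a filter and 153 thinned, and against upper-layer cells 860 with DESeq2 and 813 thinned. The share of higher calls in the last comparison was 50.9% and became 63.1% at the 5% mitochondrial limit and 63.2% without KO replicate 3.

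With prefix as a covariate Sdhd (-0.0266), mt-Atp6 (-0.0578) and mt-Co3 (-0.0285) reversed between KO and WT. Thinning reversed St18 against layer V (-0.0571) and Tmem176b (1.23) and Hist1h1b (0.59) against upper-layer cells, and at least 4 of 6 genes reversed Tmem176b (0.23). Thinning leaves fewer UMIs per embryo by construction, and otherwise the cause was not tested. With the replicate block, KO against WT gave 2736 calls and KO against Het 556. Deviations of same-numbered embryos correlated by 0.278, 0.0684 and 0.201 (WT and Het) and by -0.120 to 0.0525 in the other pairs of groups, so the numbers are not taken as pairs.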
